A study of Mus musculus with 38 samples.

Results

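Myeloma cells taken from 2 positions in the bone of the same model were compared, using 5 libraries of cells released from the bone lining and 5 libraries of cells from the central marrow, which were 10 of the 38 RNA-Seq libraries of the series. Their membership follows from the labels of position and cell type. All 10 held 5TGM1-GFP cells, a mouse myeloma line marked with green fluorescent protein, sorted from C57Bl/KaLwRijHsd mice that were 8 to 10 weeks old when they received 1000000 of these cells intravenously and that were taken on day 23. Each library was made from 100 cells. The other 28 libraries held the niche cells of the bone lining, namely endothelial cells, osteoprogenitors and stromal progenitors, from healthy or myeloma-bearing mice, and they are used here only as reference levels. The tumour was a single transplanted cell line, so the libraries do not sample different myelomas. Bone lining cells were released by collagenase digestion of bone that had been flushed, crushed and washed free of marrow. For another experiment the study describes central marrow cells as flushed out and bone lining cells as digested off with collagenase. Position and the way of release therefore cannot be told apart. Libraries carry a letter (D, E, G, I and J, once in each position). The same letters recur among the niche cell libraries of myeloma-bearing mice, and those of healthy mice carry other letters. Nothing in the labels says whether a letter stands for a mouse, so p-values measure the spread between these libraries.

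Myeloma is a malignancy of plasma cells, the antibody-secreting end stage of the B lineage. The endosteum, the inner surface of bone, is lined by cells of the osteoblast lineage and is known as a place where myeloma cells can settle and stay dormant, whereas growing tumour fills the central marrow. Immediate-early genes such as Fos are transcribed within minutes of a stimulus through MAP kinase and calcium signals, NF-kB switches on its own inhibitors, and Myc drives ribosome production and growth.

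Plasma cell markers were present in all 10 libraries. Igj (now Jchain), the joining chain of polymeric antibodies, ranged from 3616 to 9357 RPKM, the reads of a gene scaled by its length and by the depth of the library, in the bone lining and from 2843 to 7370 in the central marrow. Cd48, a surface receptor of leukocytes, ranged from 193 to 461 and from 189 to 451 RPKM, and Slamf7, a plasma cell surface receptor, from 24.8 to 69.0 and from 39.0 to 45.6. The log2 fold changes of these genes, bone lining minus central marrow, were 0.19 (standard error, SE, 0.29) for Igj, 0.22 (SE 0.27) for Cd48 and 0.02 (SE 0.29) for Slamf7, and their libraries overlapped. Of 14 tested plasma cell identity genes, 0 were called by limma, 1 had an unadjusted p-value below 0.05 in the higher direction and 0 in the lower, and the median log2 fold change was 0.11 against -0.01 for all genes tested.

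Reads on genes, worked out from the steps of the RPKM values, ranged from 9735031 to 17834395 in the bone lining and from 12980720 to 17972882 in the central marrow, and 10106 to 11280 and 10608 to 10780 of the 13260 genes in the table had at least 1 read. The bone lining libraries differed more from each other than the central marrow libraries did. The median distance between a pair of libraries, the root mean square difference in log2(RPKM + 1) over 8857 genes, was 1.24 in the bone lining (10 pairs, 1.05 to 1.39) and 0.897 in the central marrow (10 pairs, 0.842 to 0.951), and 76.1% of the genes had the larger SD in the bone lining. Among the 2719 genes above a mean of 20 RPKM the medians were 1.02 and 0.578. Bone lining libraries D and I lay farthest out, and without them the median distance in the bone lining was 1.08 over all genes and 0.766 over the higher genes (3 pairs each). The libraries with the fewest reads were E and J of the bone lining, whereas D and I had 16097389 and 17834395 reads. The part of depth in this spread was not tested.

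**Figure D1:**
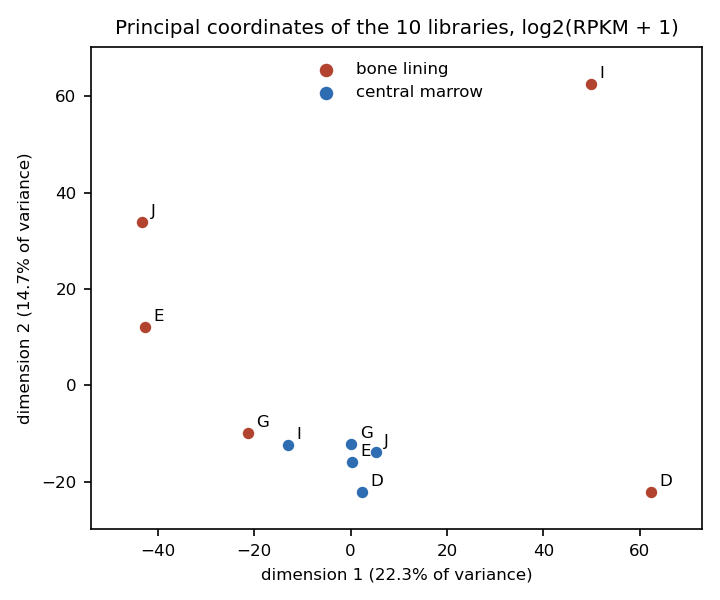
Principal coordinates of the 10 myeloma cell libraries from log2(RPKM + 1) of 8857 genes, with dimension 1 (22.3% of variance) on the x axis and dimension 2 (14.7%) on the y axis, and 1 point per library with its letter. The 5 central marrow libraries sit together near the middle, whereas the 5 bone lining libraries are scattered, with D and I far to the right.

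Markers of other cells were uneven between libraries. Of 8 niche cell markers picked for this check, Cdh5 and Emcn of endothelium were in the bone lining libraries at no more than 0.0352% and 0.0398% of their median level in the endothelial libraries of myeloma-bearing mice, and Col1a1 and Ibsp at no more than 0.225% and 0.112% of that in osteoprogenitors. Col3a1, a fibrillar collagen of stromal cells, reached 2.17% of the stromal progenitor level in bone lining library J and had a median of 0.0253% over the 5 libraries. Cxcl12 reached 1.01% in the same library, with a median of 0.0485%. Pdgfra and Prrx1 were at no more than 0.0545% and 0.0407% of the stromal progenitor level. Other markers on the same lists stood higher in both positions, with up to 16.8 and 23.2 RPKM for Pecam1, 40.9 and 31.2 for Bglap, 65.4 and 71.5 for Alpl, and 13 and 12.2 for Dcn. Of 8 macrophage and osteoclast markers other than Cd68, the sum was 46.9, 7.54, 114, 2.01 and 0.253 RPKM in bone lining libraries D, E, G, I and J and ranged from 0.201 to 12.3 RPKM in the central marrow, with Atp6v0d2 at 0 in all 10 libraries. Cd68 itself ranged from 168 to 895 and from 405 to 629 RPKM. A few further immune genes, H2-Aa, Fcer1g and Tyrobp, were looked up after the data had been seen. H2-Aa, an MHC class II chain, was at 150 RPKM in bone lining library E, at 94.6 in G and at 0 in the other 8. Fcer1g, a receptor chain of myeloid and NK cells, was highest in the same pair, at 308 and 52.1 RPKM. Tyrobp, an adaptor of myeloid and NK receptors, was at 20.9, 44.3, 25.7, 0 and 0 RPKM in bone lining libraries D, E, G, I and J and reached 10.9 RPKM in central marrow library I. In bulk libraries fewer cells of a type and less RNA per cell cannot be told apart.

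The neutrophil gene S100a9 went the other way, with no more than 0.581 RPKM in any bone lining library and up to 17.1 in the central marrow (log2 fold change -2.22, SE 0.59, adjusted p = 0.265). Other neutrophil genes were mixed. S100a8 reached 18.9 RPKM in bone lining library D and 39.1 in central marrow library G. Ngp reached 8.25 RPKM in the bone lining and 0.125 in the central marrow. The summed level of 6 neutrophil markers was 0 to 18.9 and 0.470 to 44.5 RPKM, that of 3 erythroid markers 0 to 26.4 and 0 to 32.3, and that of 12 osteoblast lineage markers 34.3 to 114 and 42.1 to 112, of which Sp7 was at 0 in all 10 libraries. The 9 stromal markers summed to 5.21 to 52.8 and 6.36 to 16.3 RPKM, and the 9 endothelial markers to 8.01 to 25.3 and 7.65 to 26.0. Ly6a, a stromal and endothelial surface protein, ranged from 0.407 to 38 RPKM in the bone lining and from 0.0466 to 4.62 in the central marrow (log2 fold change 1.70, SE 0.78, unadjusted p = 0.0441). Cd79b of B cells was at 290 to 569 and 278 to 392 RPKM. No T or NK cell marker written for this check was in the table used here.

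The 8857 genes tested were those above 1 RPKM in no fewer than 4 libraries, and 18 were called, which is 0.203%. A gene was called when its adjusted p-value in limma was below 0.1 and its log2 fold change of RPKM + 1 exceeded 1 in size. In the bone lining 13 were higher (0.147% of genes tested) and 5 were lower (0.0565%). The higher genes were the immediate-early factors Fos, Fosb and Klf6, the NF-kB inhibitor Nfkbia, the phosphatase Dusp14, the lymphocyte position genes Cd69 and Gpr183, the apoptosis gene Pmaip1, the hypoxia-induced gene Ankrd37, the kinase Clk1, and Tsc22d3, Sh3bgrl3 and 1810034E14Rik. The lower genes were Myc, the microRNA host transcript Mir17hg, the small nucleolar RNA Snord69, Thap4 and Fam212a (now Inka1). Unadjusted p-values below 0.05 were found for 282 genes in the higher direction (3.18%) and 248 in the lower (2.80%). These shares are the background for the counts given for gene lists. The lists were written with earlier results of these data known, so their counts are not independent of these data. The libraries of the positions did not overlap for 80 genes that were higher (0.903%) and 50 that were lower (0.565%) in the bone lining. Among the 18 called genes, 17 had libraries that did not overlap, the exception being 1810034E14Rik. Without bone lining libraries D and I, which stood apart, 3 of the 18 were called (Cd69, Dusp14 and Nfkbia), and without both libraries lettered D the same 3 genes were called. Without bone lining E and G, those with H2-Aa, 13 of the 18 were among 27 called, and without central marrow D 10 of the 18 were called. With either pair of bone lining libraries left out, Sh3bgrl3 and Gpr183 did not pass the filter and were not tested.

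**Figure D2:**
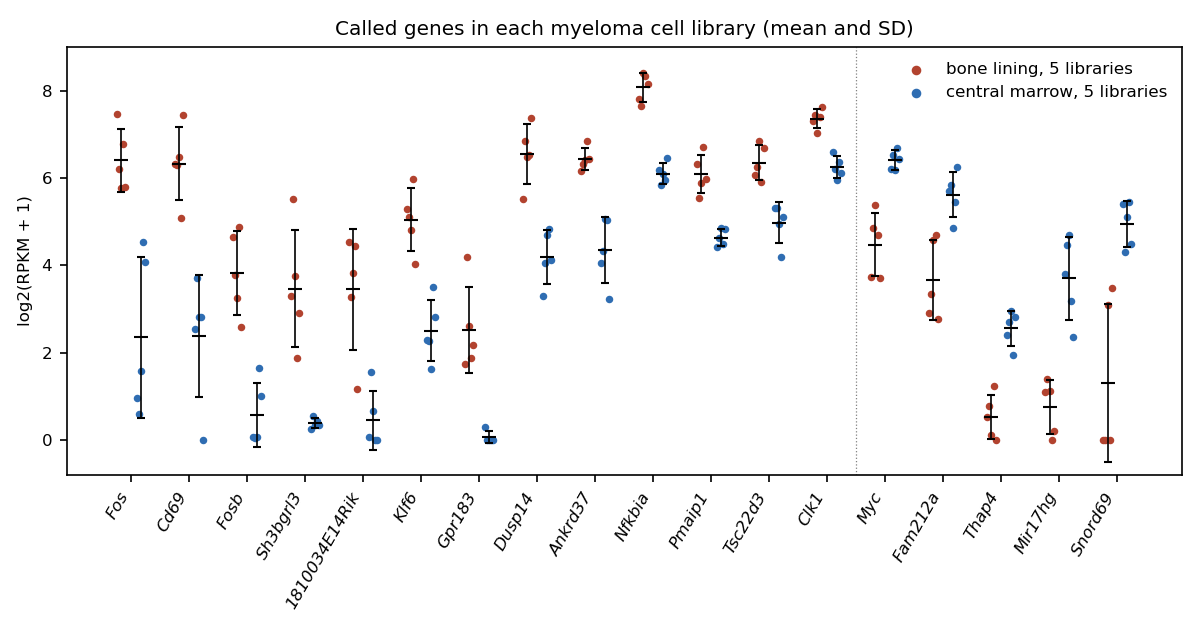
Level of the 18 called genes as log2(RPKM + 1) on the y axis, with 1 point per library, the mean and the SD, and the genes on the x axis ordered from the largest rise to the largest fall. For every gene but 1810034E14Rik the 5 bone lining points and the 5 central marrow points do not overlap.

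Fos, which pairs with Jun proteins to form AP-1 (chromosome 12, 85473890 to 85477274 of GRCm38), was at 177, 72.6, 53.5, 109 and 54.3 RPKM in bone lining libraries D, E, G, I and J and at 0.937, 0.512, 1.98, 22.3 and 16.0 RPKM in central marrow libraries D, E, G, I and J. The lowest bone lining library was above the highest central marrow library, and within the central marrow I and J stood above the other 3. The log2 fold change was 4.05 (SE 0.67, adjusted p = 0.0182), the largest of the 18 at a pseudocount of 1. At a pseudocount of 0.1 it was 4.61, below Gpr183 (5.2), Fosb (5.13), 1810034E14Rik (5.00) and Cd69 (4.74), level with Sh3bgrl3 (4.61) and smaller in size than Snord69 (-5.64). Fosb, a relative of Fos (chromosome 7, 19302696 to 19310118), was at 24.1, 12.7, 8.57, 28.3 and 4.98 RPKM in the bone lining and at 0.0495, 0.0294, 0.0511, 2.14 and 1.01 in the central marrow. Libraries I and J were again the highest of the central marrow, and the difference was 3.26 (SE 0.52, adjusted p = 0.0180). Fosb was not called by voom-limma, a fit on the reads worked out from the RPKM values of the 10 libraries (6.32, adjusted p = 0.528).

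Klf6, a zinc finger transcription factor induced with the immediate-early genes, was at 38.4, 33.6, 27.1, 62.4 and 15.4 RPKM in the bone lining and at 3.91, 3.84, 2.09, 10.3 and 6.05 in the central marrow (log2 fold change 2.55, SE 0.43, adjusted p = 0.0182). Junb, another AP-1 subunit, ranged from 14.0 to 21.9 and from 1.91 to 12.2 RPKM (1.31, SE 0.42, adjusted p = 0.540), and the nuclear receptor Nr4a1 from 0.830 to 6.72 and from 0 to 0.568 (2.0, SE 0.44, adjusted p = 0.108). Neither was called, although their libraries did not overlap. Nr4a1 was below 1 RPKM in every central marrow library and passed the filter only through the bone lining, which favours such a separation. Over the 18 immediate-early factors tested, of 31 written, 3 were called higher and 0 lower, 6 had an unadjusted p-value below 0.05 in the higher direction and 0 in the lower, and the median log2 fold change was 0.65 against -0.01 for all genes. Other members differed in sign. Ier5, Maff and Gadd45b had values of 1.14, 1.05 and 1.0 at unadjusted p-values of 0.0515, 0.0539 and 0.0748, whereas Btg2, Zfp36l1 and Klf10 had values of -0.41, -0.51 and -0.48. The mean log2(RPKM + 1) over these 18 genes was 4.15, 3.43, 3.31, 4.09 and 3.02 in bone lining libraries D, E, G, I and J and 2.31 to 3.10 in the central marrow, so that bone lining library J lay inside the central marrow range.

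NF-kB feedback genes included the call with the smallest p-value of the comparison. Nfkbia encodes IkBa, which binds NF-kB dimers, keeps them in the cytoplasm and is itself an NF-kB target (chromosome 12, 55489409 to 55492647). It was at 224, 201, 340, 321 and 286 RPKM in the bone lining and at 71.2, 55.9, 67.0, 61.1 and 87.1 in the central marrow. All 5 bone lining libraries were above all 5 central marrow libraries by a wide gap, and the log2 fold change was 1.97 (SE 0.22, adjusted p = 7.22e-04).

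A further 4 genes of this group had unadjusted p-values below 0.05 without being called. Nfkbiz, a nuclear IkB protein, ranged from 12.6 to 55.0 RPKM in the bone lining and from 3.99 to 8.91 in the central marrow (1.84, SE 0.41, adjusted p = 0.108). Rel, the c-Rel subunit, ranged from 3.97 to 20.2 and from 0.175 to 2.82 RPKM (2.09, SE 0.51, adjusted p = 0.210). Tnfaip3, the A20 deubiquitinase that ends NF-kB signalling, ranged from 1.48 to 8.16 and from 0 to 2.63 (1.70, SE 0.52, adjusted p = 0.491), and Relb from 3.51 to 14.8 and from 0.0914 to 6.35 (1.57, SE 0.59, adjusted p = 0.747). Libraries of the positions overlapped for Tnfaip3 and Relb and not for Nfkbiz and Rel. Of 18 NF-kB genes tested, of 25 written, 1 was called, 5 had an unadjusted p-value below 0.05 in the higher direction and 0 in the lower, and the median log2 fold change was 0.36. Nfkbid and Traf3 had values of -1.0 and -0.79.

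The sequence before the start of the called genes was read for 5 short motifs. RefSeq promoter sequence of GRCm38.p6 was at hand for 13 of the 18 called genes, 10 higher and 3 lower, and the 250 bases before each listed transcript start were searched on both strands. For Ankrd37, Fosb and Dusp14 that start lies inside the annotated span of the gene, which runs further upstream. The NF-kB consensus was found for 4 of the 10 higher genes (Nfkbia, Fos, Fosb and Sh3bgrl3) and in 5.96% of 32536 promoters of the same length. The core of the hypoxia response element, ACGTG or GCGTG, was found for 5 of the 10 (Fos, Klf6, Gpr183, Dusp14 and Ankrd37) and in 38.8% of promoters. The cAMP response element TGACGTCA, the AP-1 site TGANTCA and the CArG box of serum response factor were found for 0 of the 10 in this window, and in 1.56%, 6.73% and 1.48% of promoters. Among the 3 lower genes (Fam212a, Thap4 and Mir17hg) the hypoxia core was found in all 3 and the NF-kB consensus in 0. Fos was the called gene with both motifs, and they did not overlap there. Promoters are shown of Nfkbia, the gene with the smallest p-value, the AP-1 gene Fos and Ankrd37, the called gene with the most matches to the hypoxia core in these windows, and capitals mark the NF-kB consensus in Nfkbia and Fos and the hypoxia core in Ankrd37, on either strand. A match describes the letters and was not tested as a binding site.
Nfkbia, minus strand, chr12:55492648-55492897: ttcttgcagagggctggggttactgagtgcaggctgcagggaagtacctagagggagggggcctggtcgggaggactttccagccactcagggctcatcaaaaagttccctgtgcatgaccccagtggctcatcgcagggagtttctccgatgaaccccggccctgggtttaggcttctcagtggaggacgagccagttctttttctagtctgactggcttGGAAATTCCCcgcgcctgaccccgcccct
Fos, plus strand, chr12:85473640-85473889: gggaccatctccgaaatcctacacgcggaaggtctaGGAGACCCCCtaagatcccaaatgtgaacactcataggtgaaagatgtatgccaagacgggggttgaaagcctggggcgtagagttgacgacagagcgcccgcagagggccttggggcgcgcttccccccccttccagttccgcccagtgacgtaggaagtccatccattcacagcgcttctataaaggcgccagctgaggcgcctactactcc
Ankrd37, minus strand, chr8:45999851-46000100: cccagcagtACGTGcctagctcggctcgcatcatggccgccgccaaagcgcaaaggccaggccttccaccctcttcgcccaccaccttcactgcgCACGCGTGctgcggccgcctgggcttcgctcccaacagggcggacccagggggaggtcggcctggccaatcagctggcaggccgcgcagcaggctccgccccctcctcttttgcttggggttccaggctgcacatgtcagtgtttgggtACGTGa

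MAP kinase feedback genes encode inhibitors of the pathway, among them the Dusp phosphatases that switch ERK, JNK and p38 off again. Dusp14 (chromosome 11, 84048033 to 84069256) was at 44.7, 115, 88.0, 91.7 and 165 RPKM in bone lining libraries D, E, G, I and J and at 8.77, 15.7, 24.8, 27.7 and 16.4 RPKM in the central marrow. The libraries of the positions did not overlap, with 44.7 RPKM the lowest in the bone lining and 27.7 the highest in the central marrow. J of the bone lining was the highest library, and the log2 fold change was 2.35 (SE 0.36, adjusted p = 0.0174). Dusp1, the prototype of the family, was at 33.0 to 63.6 RPKM in the bone lining, and in the central marrow at 3.56, 2.76, 4.13, 44.2 and 16.4 (2.22, SE 0.56, adjusted p = 0.230). Central marrow library I thus reached the level of the bone lining, and it was also the central marrow library with the most Fos, Fosb and Klf6. Dusp6, which acts on ERK, ranged from 29.0 to 68.4 and from 8.91 to 24.4 RPKM (1.11, SE 0.34, adjusted p = 0.490). Of 9 genes tested, of 14 written, 1 was called, 3 had an unadjusted p-value below 0.05 in the higher direction and 0 in the lower, and the median was 0.59. Dusp2, Dusp7, Spry1 and Spred1 had log2 fold changes of -0.43, -0.37, 0.15 and 0.00.

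Receptors that set where lymphocytes stay in a tissue gave the call with the second-smallest p-value. Cd69, a lectin that pulls the egress receptor S1pr1 from the cell surface and is itself an activation marker (chromosome 6, 129267324 to 129275375), was at 79.2, 77.4, 88.4, 33.1 and 173 RPKM in the bone lining and at 4.82, 12.1, 6.11, 6.08 and 0 in the central marrow. The lowest bone lining library, I, was above every central marrow library, and the log2 fold change was 3.95 (SE 0.57, adjusted p = 0.0127). In the 28 niche cell libraries Cd69 was at no more than 0.223 RPKM and at 0 in 17.

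Gpr183, a receptor for oxysterols that guides B cells and plasma cells (chromosome 14, 121952331 to 121965193), was at 2.37, 17.3, 5.12, 2.68 and 3.56 RPKM in the bone lining. In the central marrow it was at 0.238 RPKM in D and at 0 in the other 4, with no more than 15 reads in a library, against 140 to 717 reads in the bone lining. Its log2 fold change of 2.46 (SE 0.47, adjusted p = 0.0496) was not called when any single central marrow library was left out (adjusted p = 0.117 without I to 0.148 without J). The highest library, E, was also the one with the most H2-Aa and Fcer1g, and the part of other immune cells was not tested. Gpr183 lies within the span of Ubac2, which is on the other strand. Reads were counted with the default settings of featureCounts, which ignore strand, so that reads of overlapping genes on either strand cannot be told apart.

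Cxcr4, the receptor for the retention chemokine Cxcl12, ranged from 4.37 to 21.5 RPKM in the bone lining and from 2.0 to 8.73 in the central marrow (1.09, SE 0.45, adjusted p = 0.789). Of 13 position and adhesion genes tested, of 28 written, 2 were called, 3 had an unadjusted p-value below 0.05 in the higher direction and 0 in the lower, and the median was -0.01. The integrin chains Itga4, Itgal, Itgb1 and Itgb2 had log2 fold changes of -0.18, -0.17, 0.12 and -0.07, and the selectin ligand Selplg one of -0.16.

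Myc and Mir17hg were lower in the bone lining. Myc, the transcription factor of growth and ribosome production that is often activated in myeloma (chromosome 15, 61985341 to 61990361), was at 12.4, 28.0, 40.6, 25.0 and 12.1 RPKM in the bone lining and at 72.9, 91.7, 71.5, 103 and 85.4 in the central marrow. Every bone lining library was below every central marrow library, and Myc fell by 1.93 on the log2 scale (-1.93, SE 0.32, adjusted p = 0.0182). Mir17hg, the host transcript of the miR-17-92 cluster and a known Myc target (chromosome 14, 115044390 to 115046728), was at 1.13, 1.64, 1.17, 0 and 0.160 RPKM in the bone lining and at 13, 21.2, 24.9, 8.06 and 4.15 in the central marrow. The bone lining libraries held 0 to 65 reads of Mir17hg and the central marrow libraries 207 to 1343. Its log2 fold change was -2.94 (SE 0.51, adjusted p = 0.0236). Mir17hg lost its call in voom-limma of these 10 libraries (-5.36, adjusted p = 0.740).

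The cluster's 6 mature microRNAs are shown with the seed, bases 2 to 8, in capitals, since the host transcript is what the libraries counted and the mature forms were not measured. Sequences are those of RefSeq on GRCm38.p6.
mmu-miR-17-5p: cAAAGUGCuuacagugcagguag
mmu-miR-20a-5p: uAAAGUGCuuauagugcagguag
mmu-miR-18a-5p: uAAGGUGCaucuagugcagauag
mmu-miR-19a-3p: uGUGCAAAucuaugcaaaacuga
mmu-miR-19b-3p: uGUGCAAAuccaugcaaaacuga
mmu-miR-92a-3p: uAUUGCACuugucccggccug
They hold 4 different seeds: miR-17-5p and miR-20a-5p share AAAGUGC, miR-19a-3p and miR-19b-3p share GUGCAAA, and miR-18a-5p and miR-92a-3p have their own. The hairpin of miR-92a lies inside the annotated host transcript, whereas those of miR-17, miR-18a, miR-19a and miR-20a lie before its annotated start.

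Of 33 Myc and nucleolar growth genes tested, of 35 written, 2 were called lower (Myc and Mir17hg) and 0 higher, 4 had an unadjusted p-value below 0.05 in the lower direction and 1 in the higher, and the median log2 fold change was -0.23. Rrs1, a ribosome assembly factor, ranged from 5.34 to 9.65 RPKM in the bone lining and from 9.83 to 32.7 in the central marrow (-0.96, SE 0.37, adjusted p = 0.775). Nop14, a factor of the small ribosomal subunit, had a value of -1.40 (SE 0.51, adjusted p = 0.721). Polr1c, a subunit shared by RNA polymerases I and III, had one of 1.02 (SE 0.27, adjusted p = 0.258). The 79 cytosolic ribosomal protein genes had a median of 0.15, with 62 above 0, 3 with an unadjusted p-value below 0.05 in the higher direction, 0 in the lower and 0 called, and the median was 0.04 after quantile normalisation. Rpl15, the member whose libraries did not overlap among the 3, ranged from 33.4 to 43.7 and from 19.2 to 32.2 RPKM (0.59, SE 0.25, adjusted p = 0.801).

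Small nucleolar RNAs guide the chemical modification of ribosomal RNA and are mostly cut from introns. Snord69 was at 0, 0, 7.48, 0 and 10.1 RPKM in bone lining libraries D, E, G, I and J and at 41.2, 18.8, 33.5, 42.6 and 21.5 in the central marrow (log2 fold change -3.64, SE 0.67, adjusted p = 0.0361). Its RPKM rests on 0 to 10 and 27 to 52 reads per library, and it lies within Gnl3 on the same strand, so that reads of the host's unspliced transcript cannot be told apart from it. Gnl3 itself, which encodes nucleostemin, had a log2 fold change of -0.46 (unadjusted p = 0.0910). The call was lost without bone lining library E (adjusted p = 0.107) and without central marrow libraries D, G or I (0.140, 0.112 and 0.101). The GENCODE transcript is shown with the C box and the D box, the paired motifs of this class of RNA, in capitals.
Snord69, minus strand, chr14:31014287-31014366: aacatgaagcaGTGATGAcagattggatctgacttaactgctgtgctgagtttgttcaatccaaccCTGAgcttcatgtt
Of 44 small nucleolar RNAs tested, 1 was called, 5 had an unadjusted p-value below 0.05 in the lower direction and 2 in the higher, and the median was -0.48, with 13 above 0. Snord22 and Snord87 had values of -1.76 (SE 0.61) and -2.34 (SE 0.76), and Snord34, in an intron of Rpl13a, one of 1.30 (SE 0.48). These RNAs had few reads, so their values move with the pseudocount, and the list median was -0.30 with a pseudocount of 5 and -0.69 with 0.1.

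Ankrd37, a small ankyrin protein known as a target of hypoxia-inducible factor (chromosome 8, 45996908 to 46000414), was at 70.8, 79.0, 83.9, 114 and 85.2 RPKM in the bone lining and at 15.7, 19, 32.6, 31.7 and 8.46 in the central marrow. The positions were far apart, and the difference was 2.09 (SE 0.33, adjusted p = 0.0180). It was the only 1 of 25 glycolysis and hypoxia genes tested, of 32 written, to be called or to have an unadjusted p-value below 0.05, and the median of the list was 0.04. Ldha, Pgk1, Bnip3, Ddit4 and Slc2a1, which hypoxia also induces in many cells, had values of 0.47, 0.27, 0.33, -0.70 and 0.30. Ankrd37 overlaps Ufsp2 and Lrp2bp on the other strand.

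Pmaip1, which encodes Noxa, a protein that binds and blocks Mcl1, ranged from 45.6 to 103 RPKM in the bone lining and from 20.4 to 27.9 in the central marrow (1.45, SE 0.27, adjusted p = 0.0361). It was not called without central marrow library D or E (adjusted p = 0.140 and 0.112). No other member of the 14 Bcl2 family and apoptosis genes tested had an unadjusted p-value below 0.05. Mcl1, Bcl2l11, Bbc3 and Bax had values of 0.22, 0.38, 0.36 and 0.14, and the median was 0.21.

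Clk1, a kinase that phosphorylates SR splicing factors (chromosome 1, 58411988 to 58424088), ranged from 130 to 197 RPKM and from 61.1 to 95.2 (1.11, SE 0.21, adjusted p = 0.0430). It was the only 1 of 22 Clk and SR genes tested to be called or to have an unadjusted p-value below 0.05, and the median was 0.07. The call was lost without bone lining libraries E or J (adjusted p = 0.107 and 0.132) and without central marrow libraries E, G or J (0.140, 0.156 and 0.149). Tsc22d3, the glucocorticoid-induced leucine zipper GILZ (chromosome X, 140539528 to 140600522), ranged from 58.7 to 115 and from 17.4 to 39.1 RPKM (1.37, SE 0.29, adjusted p = 0.0891). Its call was kept only when bone lining library D or I was the one left out, and otherwise the adjusted p-value was between 0.140 and 0.236.

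The remaining 4 called genes were, like Tsc22d3, in none of the lists. Sh3bgrl3, a small thioredoxin-like protein (chromosome 4, 134127406 to 134128733), was at 8.82, 44.6, 12.5, 2.66 and 6.56 RPKM in the bone lining and at 0.198, 0.471, 0.273, 0.356 and 0.265 in the central marrow (3.08, SE 0.56, adjusted p = 0.0341). Its order among the bone lining libraries was headed by E and G, those with H2-Aa, and its median level in the 28 niche cell libraries was 591 RPKM, of which the bone lining myeloma libraries held 0.451% to 7.55%. The part of RNA from other cells in this difference was not tested, and the call was lost without central marrow library D (3.05, adjusted p = 0.117). Like Gpr183, Sh3bgrl3 was below 1 RPKM in every central marrow library and passed the filter only through the bone lining. 1810034E14Rik, an unnamed transcript that overlaps Cdc14b on the other strand, ranged from 1.25 to 22.1 and from 0 to 1.95 RPKM (2.99, SE 0.60, adjusted p = 0.0738). It was called without bone lining library J or central marrow library E and in no other single omission, where the adjusted p-value was 0.131 to 0.211.

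Thap4, a nuclear protein with a heme-binding domain, ranged from 0 to 1.34 RPKM in the bone lining and from 2.84 to 6.73 in the central marrow (-2.03, SE 0.41, adjusted p = 0.0814). Fam212a, an inhibitor of the kinase Pak4, ranged from 5.79 to 24.8 and from 27.9 to 74.8 RPKM (-1.97, SE 0.41, adjusted p = 0.0901). Without 1 library, Thap4 stayed called only where bone lining library I or central marrow library I was the one left out, with adjusted p-values of 0.134 to 0.213 otherwise. Fam212a stayed called only without bone lining library G or I or central marrow library G, with 0.175 to 0.260 otherwise. Both genes overlap transcripts on the other strand.

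The next genes by p-value on the higher side were not called. Stk17b, a kinase of lymphocyte activation, ranged from 19.6 to 45.4 RPKM in the bone lining and from 5.42 to 14.0 in the central marrow (1.61, SE 0.34, adjusted p = 0.108). Nfe2l2, the NRF2 factor of the oxidant response, ranged from 35.1 to 65.2 and from 9.42 to 19.3 RPKM (1.34, SE 0.30, adjusted p = 0.108). Snai2, a transcription factor best known from cell migration, ranged from 11.2 to 62.3 and from 0.513 to 9.38 RPKM (2.27, SE 0.53, adjusted p = 0.161). Elf1, Dyrk3 and Tiparp, a lymphoid ETS factor, a kinase that dissolves stress granules and a target of the aryl hydrocarbon receptor, had log2 fold changes of 1.37, 1.42 and 1.15 (adjusted p = 0.199, 0.128 and 0.199). The libraries of each of these 6 genes did not overlap between positions.

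On the lower side, the next genes by p-value were mostly at low levels. Gm14139 ranged from 0 to 4.52 RPKM in the bone lining and from 5.35 to 17.6 in the central marrow (-2.45, SE 0.53, adjusted p = 0.108), and Nipsnap1, a mitochondrial protein, from 0 to 0.919 and from 0.671 to 14.7 (-2.46, SE 0.54, adjusted p = 0.108). Rps6kb2, the second S6 kinase of the mTOR pathway, ranged from 1.28 to 5.05 and from 7.62 to 11.3 RPKM (-1.56, SE 0.40, adjusted p = 0.252). Prmt6, an arginine methyltransferase, and Bcs1l, a chaperone of respiratory complex III, had values of -1.71 and -1.78 (adjusted p = 0.252 and 0.237). The libraries did not overlap for Gm14139, Rps6kb2, Prmt6 and Bcs1l.

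**Figure D3:**
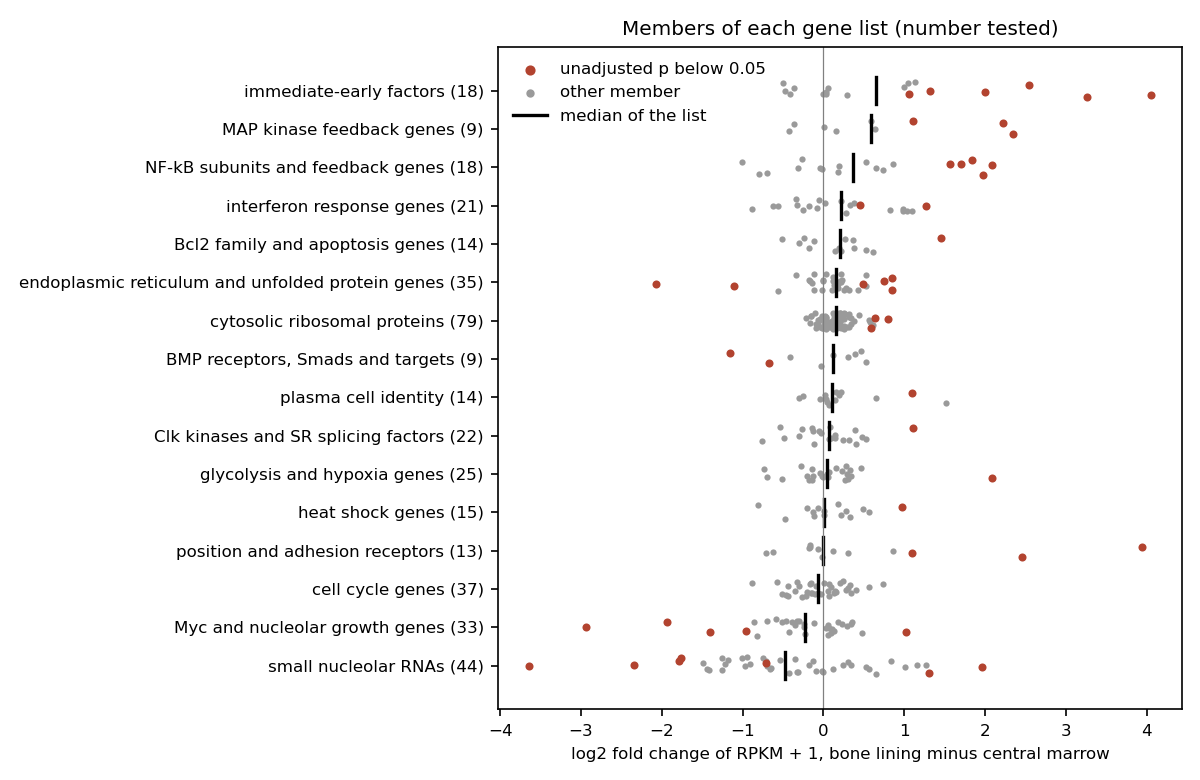
Log2 fold change of RPKM + 1, bone lining minus central marrow, on the x axis for the tested members of 16 gene lists on the y axis, with 1 point per gene, red where the unadjusted p-value is below 0.05, and a black bar at the median of the list. The immediate-early, MAP kinase feedback and NF-kB lists have medians of 0.65, 0.59 and 0.36, and the ribosomal protein and cell cycle lists stay close to 0.

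Secretory, heat shock, cell cycle and interferon genes gave 0 calls in limma, and voom-limma on recovered reads called none of them either. Of 35 endoplasmic reticulum and unfolded protein genes tested, 4 had an unadjusted p-value below 0.05 in the higher direction and 2 in the lower, and the median was 0.16. Chac1, an enzyme that degrades glutathione and is induced by Atf4, ranged from 1.13 to 7.06 RPKM in the bone lining and from 5.67 to 31.7 in the central marrow (-2.07, SE 0.53, adjusted p = 0.245). Syvn1, the ubiquitin ligase Hrd1, had a value of -1.11 (SE 0.45, adjusted p = 0.781), and Eif2ak3, Herpud1 and Derl1 had values of 0.85, 0.75 and 0.49 (adjusted p = 0.805, 0.832 and 0.832). Of 15 heat shock genes, only Dnajb1, a cochaperone of Hsp70, had an unadjusted p-value below 0.05, with 18.6 to 40.6 and 10.7 to 26.1 RPKM (0.97, SE 0.33, adjusted p = 0.617), and the list median was 0.01.

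Among 37 cell cycle genes, 0 had an unadjusted p-value below 0.05 in limma, the values ran from -0.88 to 0.74 and the median was -0.07. Pcna, the sliding clamp of DNA replication, was at 103 to 175 RPKM in the bone lining and at 70.4 to 119 in the central marrow (0.41, SE 0.23, adjusted p = 0.857), and Mki67, a protein of cycling cells, had a value of -0.58. Of 21 interferon response genes, 2 had an unadjusted p-value below 0.05 in the higher direction and 0 in the lower, with a median of 0.22. Irf9 had a value of 1.28 (SE 0.49, adjusted p = 0.770), and Bst2, at 167 to 281 and 125 to 188 RPKM, one of 0.45 (SE 0.20, adjusted p = 0.830).

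Genes through which myeloma cells could act on bone, or respond to it, were mostly below the filter. Of 33 factors acting on bone cells that were written, 21 were in the table and 3 passed the filter, with 0 called and 0 at an unadjusted p-value below 0.05. Ccl5, a chemokine, was at 0, 260, 2.66, 18.9 and 0 RPKM in the bone lining and at 0, 8.15, 4.27, 0 and 0 in the central marrow (1.72, SE 1.22, adjusted p = 0.942), so that its mean rested on bone lining library E. Spp1 and Sema4d had values of 0.23 and -0.07. Of 9 tested BMP receptors, Smads and targets, of 21 written, 0 were called and 2, both lower, had an unadjusted p-value below 0.05. Acvr2a, a type II receptor of activins and BMPs, ranged from 0.449 to 4.01 and from 4.31 to 9.62 RPKM (-1.16, SE 0.44, adjusted p = 0.747), and Id2, a BMP target, from 42.8 to 155 and from 113 to 174 (-0.67, SE 0.31, adjusted p = 0.832).

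The niche cells, which were sorted from bone lining digests like the bone lining myeloma cells, had high levels of some of the higher genes and almost none of others. Fos ranged from 835 to 2473 RPKM over the 28 niche cell libraries (median 1574), Fosb from 29.6 to 449, Junb from 43.7 to 773, Nr4a1 from 46.6 to 283 and Dusp1 from 404 to 1505. The bone lining myeloma libraries held 3.40% to 11.2% of the niche median of Fos and 2.95% to 16.7% of that of Fosb. For Klf6, Nfkbia, Clk1 and Tsc22d3 they held 29.8% to 121%, 45.0% to 76.3%, 40.3% to 60.9% and 37.6% to 73.7% of the niche median. Cd69 and Pmaip1 were at no more than 0.223 and 5.63 RPKM in every niche cell library, and Gpr183 was at 0 in 24 of 28 and at no more than 2.47 in the others. Myc ranged from 0.185 to 150 RPKM in niche cells, a range that spanned both groups of myeloma cells. For another experiment the study describes central marrow cells as flushed from the bone, and the part of cell release in these differences cannot be told apart from that of position. The part of RNA from other cells was not tested.

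**Figure D4:**
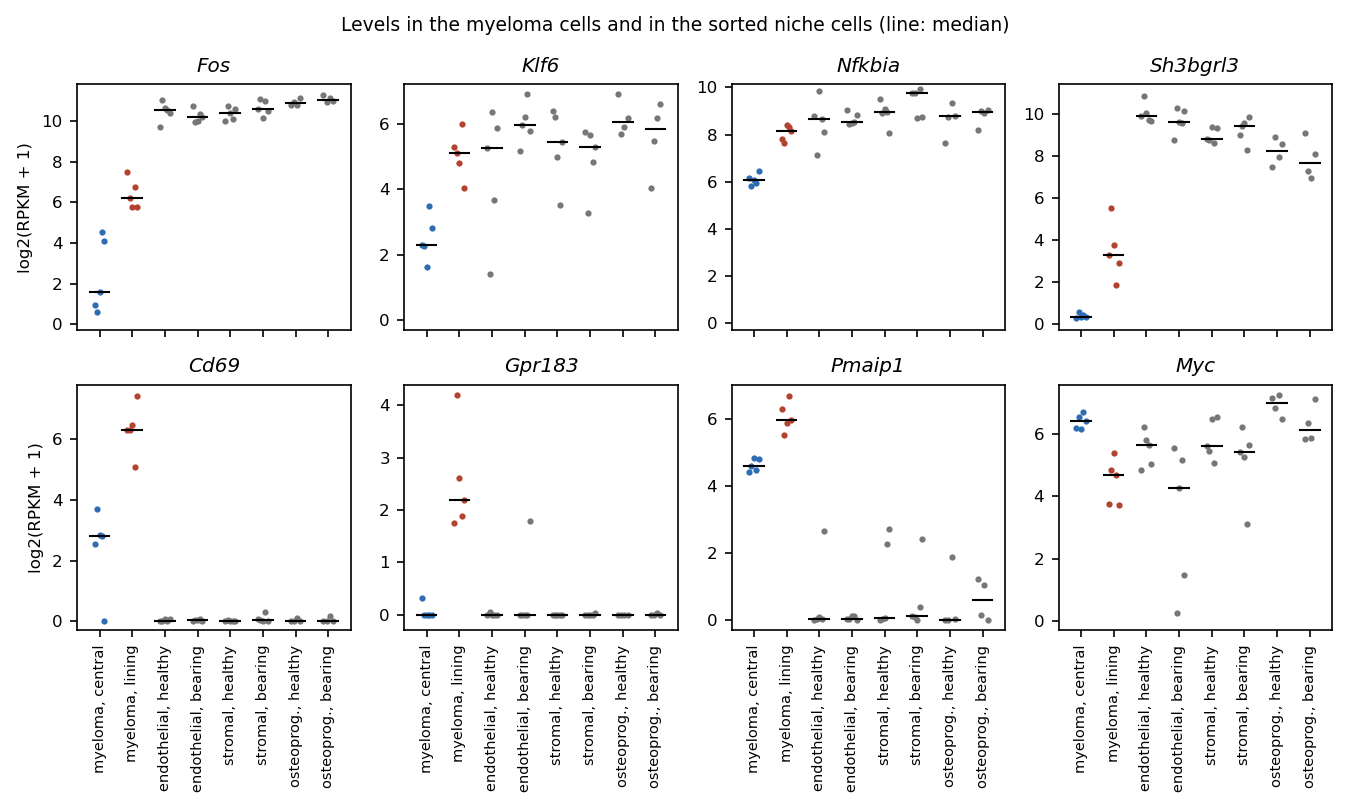
Level of 8 called genes as log2(RPKM + 1) on the y axis in the 8 groups of the series on the x axis, with 1 point per library and a line at the median. Over the 28 niche cell libraries Fos, Nfkbia and Sh3bgrl3 have medians of 1574, 446 and 591 RPKM and Klf6 runs from 1.66 to 120 RPKM, Cd69, Gpr183 and Pmaip1 stay at no more than 5.63 RPKM in any niche cell library, and Myc is lower in the bone lining than in the central marrow myeloma cells.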

How the data were processed

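Libraries were prepared with SmartSeq2 from 100 sorted cells. The authors aligned short single-end reads to GRCm38 (mm10) with STAR 2.4.0, counted them on UCSC transcripts with featureCounts of Subread 1.4.5-p1 at default settings, which ignore strand, filtered out genes with few reads and deposited RPKM values made with edgeR. The deposited RPKM values of the 10 myeloma libraries were taken as log2(RPKM + 1), with genes above 1 RPKM in at least 4 libraries, and fitted in limma 3.58.1 (R 4.3.3) with an intensity trend and Benjamini-Hochberg adjustment over all 8857 genes. The fit used no block. Fold changes on this scale understate those of low genes.

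Reads were worked out from the RPKM steps: for each of the 13260 genes a factor was found that made all 38 values whole, and 99.01% of the implied gene lengths were whole within 0.05 bases. The recovered reads gave depths of 9735031 to 17972882 and a voom-limma alternative, which called 8 genes. The scripts were tested on simulated data.

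The rule for named genes took all called genes, the next 12 by p-value in each direction, 5 markers, and up to 5 genes per list with an unadjusted p-value below 0.05 (or else the highest), of which Car2, Snora7a, Rps12 and Rpl22l1 are not described. Other members and H2-Aa, Fcer1g, Tyrobp, Col3a1 and Gnl3 were chosen after their values were seen. The 10 libraries and all lists were chosen with earlier results of these data known. Gene positions are from RefSeq on GRCm38.p6 and overlaps from GENCODE M21. Alternatives covered the pseudocount, filter, normalisation, weights, tool, samples fitted, replicate block, thresholds and each library left out, and all 38 deposited columns were assigned to samples.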

Additional observations from a re-analysis of the deposited data

Results flagged for a closer look

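Within each position, the highest and the lowest of the 5 libraries of each called gene were compared with the other 4. In 3 of 36 such groups (18 genes in 2 positions) the gap to the nearest library exceeded 0.71 of the whole range, Dixon's limit for 5 values. For normally distributed values chance alone passes it in about 1 in 20 groups, and the RPKM values were not tested for that shape. Sh3bgrl3 was at 44.6 RPKM in bone lining library E and at 2.66 to 12.5 RPKM in the other 4 bone lining libraries, a gap of 0.764 of the range. Gpr183 was at 17.3 RPKM in the same library and at 2.37 to 5.12 RPKM in the other 4, a gap of 0.816. Gpr183 was also at 0.238 RPKM in central marrow library D and at 0 in the other 4 central marrow libraries. With the other 4 at 0, the gap is the whole range whatever the value of D. Without bone lining library E the log2 fold changes were 2.57 for Sh3bgrl3 (adjusted p = 0.0365 in limma) and 2.05 for Gpr183 (adjusted p = 0.0684 in limma).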

How the results depend on the processing

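The 18 calls (13 higher, 5 lower) depended on the processing, and the cause was not tested unless stated. Over 534 pairs of a called gene and an alternative, the direction turned in 0, and the gene was no longer called in 204. Without a filter on low values 1 gene, Nfkbia, was called of 12785. The voom-limma fit on recovered reads called 8, all among the 18. They were Ankrd37, Clk1, Dusp14, Fos, Klf6, Myc, Nfkbia and Pmaip1. A threshold of 5 RPKM called 22 (16 of the 18), and pseudocounts of 0.1 and 5 called 12 and 14. With all 38 libraries in the fit 26 were called, 12 higher and 14 lower, 6 of them among the 18, so that the share of higher calls went from 72.2% to 46.2%, and voom-limma with all 38 called 12 (4 higher, 8 lower), 2 among the 18. Under other scalings, quantile normalisation called 15 and median centring 16.

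Leaving out 1 library gave 10 calls (without central marrow D) to 24 (without bone lining G), and leaving out both libraries of a letter gave 3 (without D), 10 (without G) and up to 16. The 9 genes called in every omission of 1 library were Fos, Cd69, Fosb, Klf6, Dusp14, Ankrd37, Nfkbia, Myc and Mir17hg. A further pair of alternatives was chosen after the data had been seen. Without bone lining D and I, the libraries farthest out, 3 were called (Cd69, Dusp14 and Nfkbia), with 1162 genes at an unadjusted p-value below 0.05. Without E and G, those with H2-Aa, 27 were called, 13 of them among the 18. In both of these, Sh3bgrl3 and Gpr183 did not pass the filter and were not tested, and neither were Gpr183 and Thap4 at 5 RPKM.

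Libraries of the same letter did not deviate together, with correlations over genes of -0.049 to 0.067 in 5 pairs. Of 5 bone lining libraries, 1 was closest to its own letter. The main fit did not take the letters as pairs. These correlations cannot exclude that a letter stands for a mouse, since low values can also come from noise in small libraries. With the letter as a replicate block 12 were called, all among the 18. Gpr183, Pmaip1, Tsc22d3, Clk1, Fam212a and Thap4 were not (adjusted p = 0.121 to 0.223 in limma), and voom-limma with the block called 8, 7 among the 18.

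Of the markers without a call, Igj, Slamf7 and Ptprc changed sign in some alternatives, and Cd48 kept its sign in all 30 (0.06 to 0.42). Igj was 0.19, with 0.36 without bone lining G, -0.02 without central marrow E and -0.11 without both E libraries. Slamf7 was 0.02, with -0.13 after quantile normalisation and -0.15 (without bone lining J or both J) to 0.24 (without both E) on omission, including -0.09 and -0.11 without bone lining G or both G. Ptprc was 0.14, with -0.05 without bone lining D, -0.09 without both D, -0.18 without bone lining D and I, and 0.32 without both E. Depth limits the genes with few reads, such as Snord69, Thap4 and Gpr183.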

Other observations

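Several transcripts with no established function stood next to the called genes by p-value. The long noncoding RNA 2810013P06Rik ranged from 15.2 to 45.6 RPKM in the bone lining and from 3.26 to 11.6 in the central marrow (log2 fold change 1.77, SE 0.39, adjusted p = 0.108 in limma). Another, 1500015A07Rik, ranged from 8.72 to 22.4 and from 1.66 to 7.31 (1.86, SE 0.41, adjusted p = 0.108 in limma). Neither was called, and the libraries of the positions did not overlap for either. Tspan17, a tetraspanin membrane protein, ranged from 3.14 to 12.4 and from 0.0951 to 2.47 RPKM (2.01, SE 0.49, adjusted p = 0.199 in limma), and its libraries did not overlap.

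On the lower side, Slc25a18, a glutamate carrier, ranged from 0 to 0.933 RPKM in the bone lining and from 0.671 to 4.26 in the central marrow (-1.71, SE 0.43, adjusted p = 0.230 in limma). Mterf (now Mterf1a), a mitochondrial transcription termination factor, ranged from 0 to 5.42 and from 5.87 to 12.5 RPKM (-1.96, SE 0.50, adjusted p = 0.237 in limma). Libraries overlapped for Slc25a18 and not for Mterf, and neither gene was called. A further 5 genes near them by p-value were not called either (adjusted p = 0.108 to 0.262 in limma). Their log2 fold changes were 2.23 for Gltpd1 (now Cptp), -3.61 for Mir1949, -2.93 for Gm12238, -1.81 for Zfp39 and -1.78 for Uap1l1, and of these 5 only Uap1l1 had libraries that did not overlap.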
